A study of Homo sapiens with 8 samples.

Results

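The AP-1 and immediate early factors measured here are 10 genes: FOS, FOSB, FOSL1, FOSL2, JUN, JUNB, JUND, EGR1, IER2 and IER3. They were found on the array as every probe that is not a control and whose annotated gene name is one of these symbols, which gave 11 probes of the 58201 on the array (IER3 has 2 probes, the others 1 each), for 10 of 43317 named genes. Expression was measured on 8 Agilent arrays of established human cancer cell lines. Each array compared mock cells, labelled as not transfected, in the Cy3 channel with cells of the same line after lipid transfection in the Cy5 channel. miR-139-5p and miR-139-3p were each transfected into the renal cancer lines A498 and 786-O, so that a strand has n = 2 arrays, 1 per line. si-GINS1, small interfering RNAs against the replicative helicase subunit GINS1, was given to the breast cancer line MDA-MB-231 as siRNA 1 and siRNA 2 (n = 2 arrays, 1 per siRNA), and miR-490-5p and miR-490-3p to the colorectal cancer line HCT116 (n = 1 array each). The labels give no dose, time or control oligonucleotide, so an effect of the oligonucleotide and an effect of transfection itself cannot be told apart, and no array had its dyes swapped.

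AP-1 is a dimer of basic leucine zipper proteins in which a JUN protein (JUN, JUNB or JUND) pairs with a FOS protein (FOS, FOSB, FOSL1 or FOSL2) or another JUN. Serum, growth factors and stress switch most of these genes on quickly and briefly through MAP kinases, without new protein synthesis, and they are therefore called immediate early genes. EGR1, a zinc finger transcription factor, and IER2 and IER3 are induced in the same way. FOS and JUN have been reported as targets of miR-139-5p in other tissues, which makes the miR-139 arrays a place to look at their mRNA.

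A miRNA recognises its targets mainly through its seed, bases 2 to 8. The mature strands that were transfected are shown to set their seeds side by side (RefSeq, GRCh38.p14, 5′ to 3′, seed in capitals). The miR-139 strands map to the minus strand at chr11:72615102-72615124 (5p) and chr11:72615066-72615088 (3p), and the miR-490 strands to the plus strand at chr7:136903205-136903224 (5p) and chr7:136903242-136903263 (3p).
miR-139-5p: uCUACAGUgcacgugucuccagu
miR-139-3p: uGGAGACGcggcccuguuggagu
miR-490-5p: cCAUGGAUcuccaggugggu
miR-490-3p: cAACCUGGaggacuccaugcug
No seed is shared, so each strand forms a group of its own.

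The member probes were searched for the complement of each seed, on the probe strand. None of the 11 held a match to bases 2 to 8 of any of the 4 strands. The FOS probe (A_23_P106194, chr14:75748214-75748273 on hg19, plus strand) held CTGTAGA, the complement of bases 2 to 7 of miR-139-5p followed by A, which 219 of the 58201 probes (0.376%) also held. The stretch is shown because FOS is one of the reported targets (probe bases 1 to 28, 5′ to 3′, the 7-base word in capitals).
FOS probe: agagggttcCTGTAGAcctagggaggac
A match of letters within a probe is a description, and whether it is a target site was not tested. Where the probes lie relative to exons and untranslated regions was not analysed here.

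The level of each gene before transfection was read from the mock Cy3 channels as a log2 intensity, with 2 channels per line. The 2 channels of a line differed by at most 0.20 for any member, and the labels do not say whether they carried 1 extract or 2. Lines are called different only where their channels did not overlap and their means lay at least 1 log2 unit apart, a description without a test. Levels are compared between lines for 1 probe, never between probes.

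JUN (A_33_P3323298, chr1:59246511-59246570 on hg19, minus strand), the founding partner of the AP-1 dimer, varied most. A498 channels read 10.59 and 10.72 and 786-O channels 9.93 and 10.03. The MDA-MB-231 channels read 8.69 and 8.85, and those of HCT116 6.90 and 6.87. The 4 lines did not overlap and the range of means was 3.77 log2 units, a 13.7-fold difference between A498 and HCT116. A498 and 786-O lay 0.68 apart, under the limit, and each of the later steps exceeded it. FOSL2, a FOS protein that lacks a strong activation domain of its own, followed the same order, with A498 at 8.67, 786-O at 8.08, MDA-MB-231 at 7.06 and HCT116 at 6.31, a range of 2.35 units.

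EGR1 had another order. Its means were 8.61 in 786-O, 8.35 in HCT116, 6.74 in A498 and 6.31 in MDA-MB-231, a range of 2.30 units, and the 2 renal lines therefore lay on different sides of the widest step. IER3, which modulates cell survival and ERK signalling, was highest in HCT116 (12.50) and lowest in A498 (11.16) by its brighter probe, and its other probe gave the same top and bottom lines with a wider range, 1.81 against 1.35 units. FOSL1, the FOS protein most often raised in invasive carcinoma cells, was highest in 786-O (8.60), followed by MDA-MB-231 (8.47), HCT116 (7.80) and A498 (7.57).

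IER2, JUNB and JUND ranged over less than 1 unit (0.96, 0.76 and 0.72). Of the neighbours in their orders, MDA-MB-231 and 786-O overlapped for IER2, and so did 786-O and A498 for JUND. FOS and FOSB were dim everywhere, with ranges of 0.29 and 0.16 units and FOS intensities of 21.2 to 34.4 in Cy3 over a local background of 12 to 16. FOS was not well above background in the mock channel of the A498 miR-139-5p array, and FOSB was not in that of the 786-O miR-139-3p and the siRNA 1 array, nor in the Cy5 channel of the 786-O miR-139-5p array. The offset used in the background correction draws dim values together, and by the scanner's processed signal the ranges of FOS and FOSB were 1.69 and 1.47 units.

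**Figure D1:**
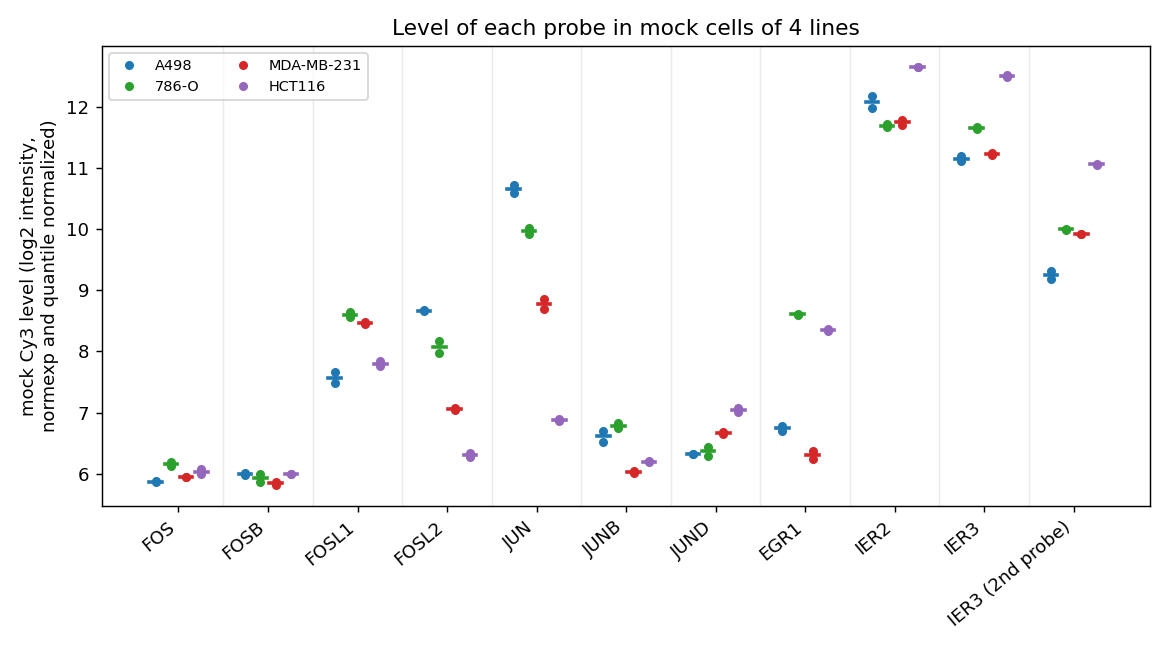
Mock Cy3 level of each member probe in 4 cell lines (y axis: log2 intensity after background correction and quantile normalization; points: 2 channels per line; short bars: their mean). JUN and FOSL2 descend from A498 to HCT116, EGR1 is high in 786-O and HCT116, and FOS and FOSB lie near the floor in every line.

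Every one of the 6 pairs of lines held a member probe that met this rule. JUN and FOSL2 made up the side of the renal lines. A498 was higher than HCT116 for both (2 of 11 probes, where 7.23% of all probes tested were higher) and higher than MDA-MB-231 for both (6.1% of all probes). 786-O was higher than HCT116 for both (6.39% of all probes) and higher than MDA-MB-231 for both and for EGR1, 3 of 10 probes tested (5.2% of all probes). MDA-MB-231 was in turn higher than HCT116 for JUN (5.58% of all probes).

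EGR1 and IER3 made up the other side. HCT116 was higher than A498 for EGR1 and both IER3 probes (3 of 11, with 6.95% of all probes), higher than MDA-MB-231 for the same 3 probes (5.12% of all probes), and higher than 786-O for 1 IER3 probe (6.17% of all probes). A498 was lower than 786-O for FOSL1 and EGR1 (4.4% of all probes) and higher for no member (4.76%). No member was lower in A498 or in 786-O than in MDA-MB-231 by this rule, where 5.93% and 4.77% of all probes were.

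The lines carried the markers of their origin in part. Of 6 renal markers, 5 were well above background in both mock channels of A498 and of 786-O, against 2 in each other line, with CA9 the exception. Of the colorectal markers, CDX2 was detected in HCT116 and in no other line, while CDX1 and EPCAM were detected in every line. EPCAM was highest in HCT116 (11.80), but CDX1 was highest in A498 (7.12, against 6.81 in HCT116). CDH17, VIL1 and LGR5 were not well above background in any line. In MDA-MB-231, 5 of 6 mesenchymal markers were detected, but the other lines carried all 6, VIM at 14.65 in MDA-MB-231 and at 6.77 in HCT116. Of markers of blood, endothelial, stromal and liver cells, between 2 and 4 of 6 were detected at a summed log2 level of 8.48 to 8.74, HBB at no channel. These RNAs come from whole cultures, so a change in the share of cells and a change of RNA per cell cannot be told apart.

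After transfection, the widest movements were in the early response factors EGR1, IER3 and IER2 and in JUN, on different arrays. All values below are log2 ratios of transfected over mock within an array, after background correction and loess.

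**Figure D2:**
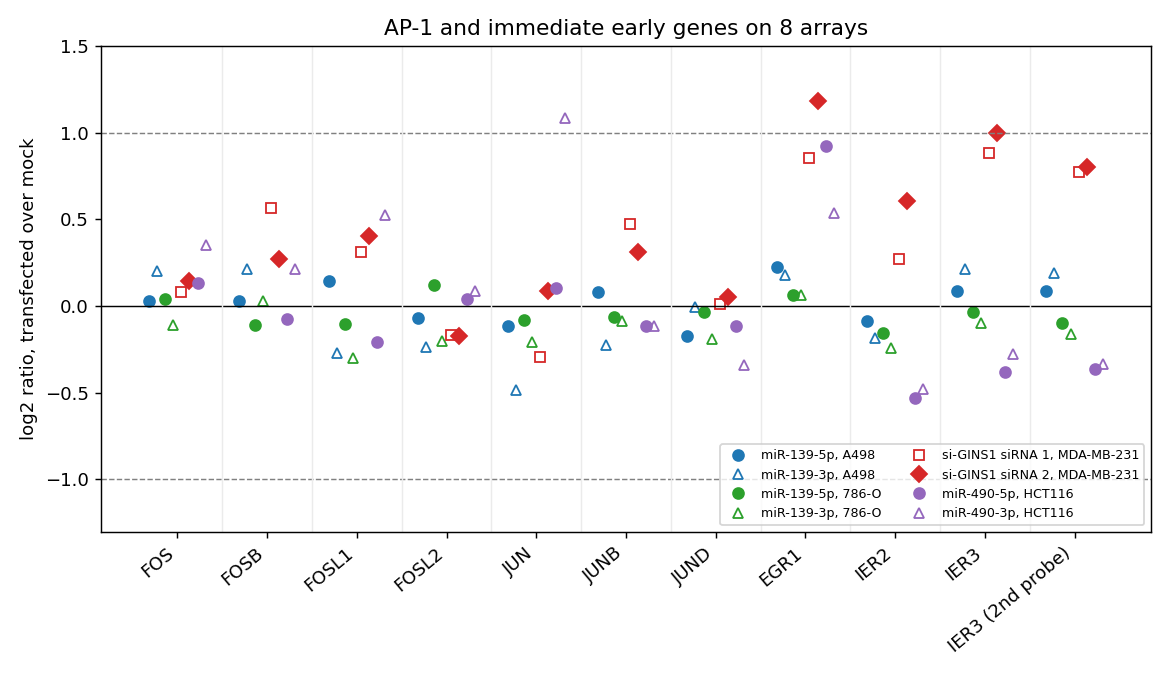
Log2 ratio of transfected over mock for the 11 member probes (x axis) on each of 8 arrays (points; dashed lines mark 1 and -1). The 4 miR-139 arrays stay between -0.48 and 0.22, both si-GINS1 arrays are high for EGR1 and IER3, and JUN passes 1 on the miR-490-3p array only.

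The si-GINS1 comparison asks how loss of GINS1 changed expression in MDA-MB-231. GINS1 mRNA fell by 1.31 with siRNA 1 and by 1.92 with siRNA 2, and lay between -0.11 and 0.55 on the other 6 arrays. Of the 10 genes, EGR1, IER3 and JUNB rose and none fell, by limma with Benjamini-Hochberg adjustment over all probes. These were 4 of the 11 member probes, with 3.33% of all 27796 probes tested called higher and 3.63% lower (6.97% in all). At an unadjusted p under 0.05 there were 8 of 11, against 25.9% of all probes. All 4 calls were lost by the scanner log ratio, with only the si-GINS1 arrays in the fit, and when the prior variance followed intensity. Of all probes, 0.27% were called by the first of these and 0% by each of the others. Of 6 markers of blood, endothelial, stromal and liver cells, 3 could be measured on each array, with medians of 0.18 and 0.22 and COL1A1, a collagen, at 0.69 with siRNA 1 and 0.14 with siRNA 2. Their part in the result was not tested.

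EGR1 (A_23_P214080, chr5:137804891-137804950 on hg19, plus strand) read 0.85 with siRNA 1 and 1.18 with siRNA 2. Its mean was 1.02 ± 0.24 (SD, n = 2 siRNAs), a 2.02-fold rise (limma adjusted p = 0.0173). Its ratio was above 0 on all 8 arrays, so a dye effect of this probe cannot be told apart from a shared response. With its mean over the other lines subtracted, the si-GINS1 mean was 0.69. Such a subtraction takes away the responses on the arrays of those lines together with any dye effect. By the scanner software's own log ratio it was 1.79, over 1.5 times as large, and the adjusted p was 0.064.

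IER3 read 0.884 with siRNA 1 and 0.999 with siRNA 2 by its brighter probe (A_23_P42257, chr6:30711312-30711371 on hg19, minus strand), a mean of 0.94 ± 0.08 (limma adjusted p = 0.0173). The other probe (A_33_P3423551, chr6:30711576-30711635) gave 0.77 and 0.80 (limma adjusted p = 0.0251). Both siRNAs lay above all 6 other arrays, which ran from -0.38 to 0.21 for the brighter probe. Under median centring in place of loess its mean was 1.51, over 1.5 times as large.

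JUNB, a JUN protein that activates transcription less strongly than JUN, read 0.47 and 0.31, a mean of 0.39 ± 0.11 (limma adjusted p = 0.0475). This probe was dim in MDA-MB-231, with Cy3 intensities of 31.6 and 34.2 and Cy5 intensities of 71.0 and 54.9. Its call was lost under median centring (adjusted p = 0.054) and without the filter on dim probes (adjusted p = 0.061), and its mean by the scanner log ratio was 1.21.

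**Figure D3:**
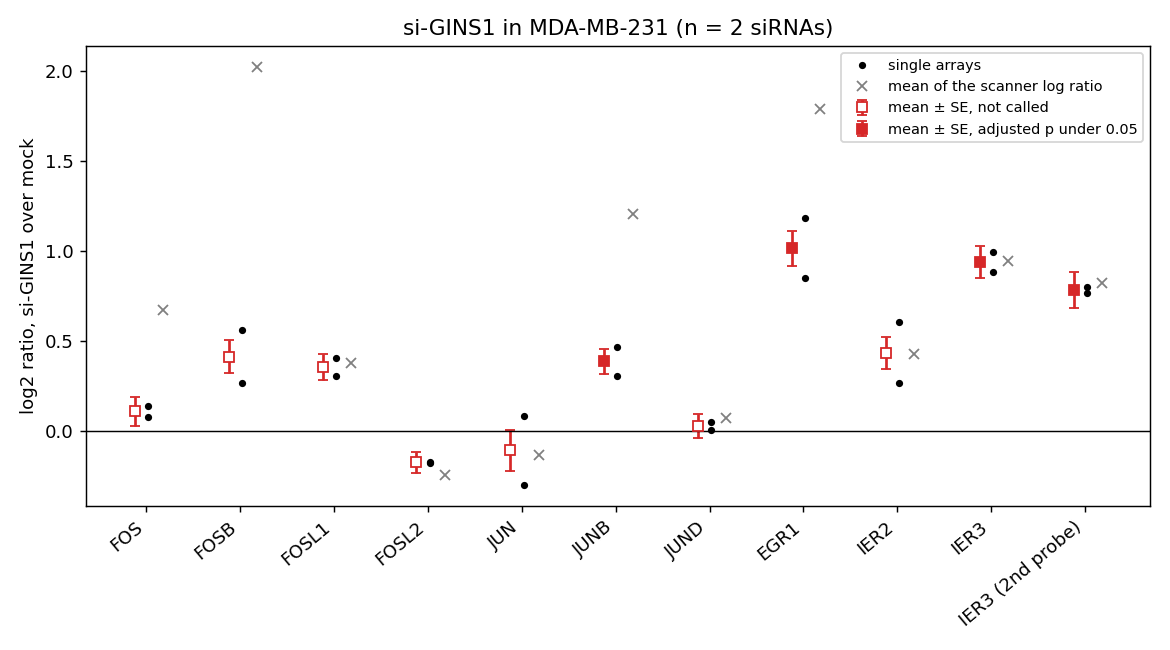
si-GINS1 over mock in MDA-MB-231 for each member probe (y axis: log2 ratio; squares: limma mean ± SE of 2 arrays, filled where called; dots: siRNA 1 and siRNA 2; crosses: mean of the scanner log ratio). EGR1, both IER3 probes and JUNB are called, and the dim genes FOSB, JUNB and EGR1 have crosses far above their squares.

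The other members did not pass. IER2 read 0.27 and 0.61 (mean 0.44 ± 0.24, limma adjusted p = 0.0581), FOSL1 0.31 and 0.41 (mean 0.36 ± 0.07, limma adjusted p = 0.0580) and FOSB 0.56 and 0.27 (mean 0.42 ± 0.21, limma adjusted p = 0.0704). Each of these was above 0 with both siRNAs without passing the test. Under median centring the IER2 and FOSL1 means were 1.02 and 0.73. JUN read -0.30 and 0.09, the only member to change sign between the siRNAs (limma adjusted p = 0.627). FOSL2 read -0.17 with each siRNA (limma adjusted p = 0.159), and its mean turned to 0.06 under median centring, where the median gene lay at 0.18 (siRNA 1) and 0.08 (siRNA 2). FOS and JUND had means of 0.11 and 0.03.

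The median over the 10 members was 0.37 against 0.01 for all genes tested. 31 other immediate early genes had a median of 0.33, with 3 called higher (CYR61 0.60, GADD45A 0.70 and HBEGF 0.45) and 1 lower (ID1, an inhibitor of helix-loop-helix factors, -1.12), and 20 of 31 at an unadjusted p under 0.05. CYR61, a secreted matrix protein, had a mean of 0.03 once its mean over the other lines was subtracted. Of 17 other leucine zipper partners 2 were called higher, ATF3 (1.001 and 1.758) and MAFG (0.43 and 0.43), and none lower. ATF3, a stress-induced partner of JUN, has 3 further probes with means of 0.06 to 0.26, so its probes disagree.

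Genes around AP-1 moved in both directions. Of 15 feedback inhibitors of MAP kinases only DUSP1, a phosphatase that is itself an immediate early gene, was called (0.72 and 1.43, limma adjusted p = 0.0483). Among genes of the MAP kinase cascade and its SRF arm, the SRF coactivator MKL1 (0.40) was called higher and MAPK3 (-0.41) lower. Of 18 AP-1 target genes, 2 were called, both lower: CCND1, the G1 cyclin D1 (-1.44 and -1.01), and PLAU, the urokinase protease (-0.94 and -0.91), while the list's median was 0.25. PLAU had a mean of -0.30 once its mean over the other lines was subtracted. The siRNAs differed at IL6, 3.04 with siRNA 2 and 0.88 with siRNA 1 by its brightest probe, although its other probe read 0.17 with siRNA 2.

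Other genes are named here as the extreme of their list on 1 siRNA array, and their values with the other siRNA are not reported here. With siRNA 2, TRIB1, a pseudokinase, read 1.98, ID3 -1.46 and MAP2K4 -1.76 (-0.29 by its other probe). With siRNA 1, CTGF read -1.45, KLF10 1.04 and SPRY1, an inhibitor of receptor tyrosine kinase signalling, -1.74. No member differed by 0.5 or more between the siRNAs, where 10.8% of all genes were lower and 8.88% higher with siRNA 2 by that amount.

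The promoters were searched because several members moved together with si-GINS1. RefSeq promoters (GRCh38.p14, 250 bases before to 50 after the start) were matched for 8 of 10 members, without FOSL1 and IER3. On both strands, the CArG box, a run of A and T between CC and GG that is bound by SRF, was found in EGR1 alone among the 8 and in 1.29% of 35116 promoters. Bases outside this window were not searched, so a box further from the start of FOS or another member would be missed. EGR1 held it at 2 places that do not overlap, and the first, CCATATTAGG, occurred in 12 of all promoters (0.0342%). The windows lie at chr5:138465365-138465392 and chr5:138465387-138465414 (plus strand, box in capitals).
EGR1 first window: ccggtcctgCCATATTAGGgcttcctgc
EGR1 second window: tcctgcttcCCATATATGGccatgtacg
The AP-1 site TGACTCA was found in the FOSL2 promoter (4.95% of all), the cAMP response element TGACGTCA in that of JUND (1.85%), and the EGR1 site GCGGGGGCG in none of the 8 (5.07%).

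The miR-139-5p comparison asks which genes changed with the strand for which FOS and JUN are reported targets. No member was called by limma, and 0 of 11 probes had an unadjusted p under 0.05, where 0.0129% of 23282 probes were called and 2.55% had such a p. FOS read 0.03 in A498 and 0.04 in 786-O, a mean of 0.04 ± 0.01 (SD, n = 2 lines, SE of the fit 0.08). Its probe was close to background, so a fall of this mRNA had little room to show. JUN, which was bright in both lines, read -0.12 and -0.08, a mean of -0.10 ± 0.02 (SE of the fit 0.12, unadjusted p = 0.433 by limma). Under median centring the JUN mean was 0.11, so its sign depended on the scaling.

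The other members were within 0.22 of 0 on both miR-139-5p arrays. The EGR1 mean was 0.14 and turned to -0.48 with its mean over the other lines subtracted. That subtracted mean held the EGR1 ratios of the si-GINS1 arrays (0.85 and 1.18) and of the HCT116 arrays (0.92 and 0.53). The value of -0.48 therefore does not measure a change against mock with this strand. The IER2 mean was -0.12 and turned to 0.15 under median centring. The median of the 10 members was 0.03 in A498 and -0.05 in 786-O, against 0.01 and 0.00 for all genes.

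With miR-139-3p, JUN, FOSL1 and FOSL2 had the lowest means and none passed the adjusted test. JUN read -0.48 in A498 and -0.21 in 786-O (mean -0.35 ± 0.20, unadjusted p = 0.0307 by limma). FOSL1 read -0.27 and -0.30 (mean -0.28 ± 0.02, unadjusted p = 0.0135 by limma), and FOSL2 read -0.24 and -0.20 (mean -0.22 ± 0.03, unadjusted p = 0.0182 by limma). All 3 had a limma adjusted p of 0.9999, and no probe of 22806 was called (0% of probes), with 3 of 11 member probes and 4.44% of all probes at an unadjusted p under 0.05. Each mean stayed below 0 under median centring, at -0.17, -0.18 and -0.11. There, 0 of 11 member probes had a limma unadjusted p under 0.05, against 1119 of all 22806 probes. By the scanner log ratio 1 of 11 had such a p (1422 of all probes). The number was 3 without background correction (1013) and with an offset of 10 (1056), and 4 with the other lines' mean subtracted (1525).

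The strands were then compared directly. miR-139-3p minus miR-139-5p was -0.31 (SE 0.11) for FOSL1 and -0.25 (SE 0.09) for FOSL2, with unadjusted p of 0.0374 and 0.0431 by limma and an adjusted p of 0.9999 for both. These were 2 of 11 probes at an unadjusted p under 0.05, against 0.681% of 22174, and none was called (0% of all probes). The 2 became 0 by the scanner log ratio (462 of all probes), under median centring (37) and with the other lines' mean subtracted (91). It was 1 without background correction (127) and with an offset of 10 (145). Leaving out the cell line as a pairing term or including it gave 0 calls. For JUN the strands differed by -0.25 (SE 0.16), for FOS by 0.01 (SE 0.12). Between the lines, IER3 was above 0 in A498 (0.09 and 0.21) and below it in 786-O (-0.03 and -0.10), and this difference did not pass the adjusted test either.

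None of the related lists had a called gene in the miR-139 comparisons. Under miR-139-3p, 19 AP-1 target genes had a median of -0.17 against 0.01 for all genes, and under miR-139-5p the 20 tested had a median of -0.0036.

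The miR-490 arrays had 1 array per strand, so no test was made and a gene was singled out at a log2 ratio of 1 or more in size. On the miR-490-3p array JUN alone of the 10 members passed, at 1.09, where 0.398% of 21864 genes were that much higher and 0.672% that much lower. EGR1 read 0.53, FOSL1 0.52 and IER2 -0.48. With its mean over the other lines subtracted, EGR1 read 0.11 on this array and 0.49, against 0.92, on the miR-490-5p array. That mean held its si-GINS1 values of 0.85 and 1.18. JUN starts from its lowest mock level in this line, and its ratio ran from 1.09 to 1.49 over the scalings, including the scanner log ratio.

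On the miR-490-5p array no member passed, where 0.297% of 21542 genes were higher and 1.09% lower by 1 unit. EGR1 read 0.92 and IER2 -0.53, and JUN read 0.10. Set against each other, miR-490-3p minus miR-490-5p was 0.98 for JUN and 0.73 for FOSL1, with no member at 1 or more (0.837% of genes higher and 0.443% lower). IER2 read -0.53 and -0.48 for the 5p and 3p strands, and IER3 -0.38 and -0.28. Under median centring IER2 read -0.27 and -0.05 and IER3 -0.12 and 0.15, so neither the size nor the likeness of these values held under that scaling. By the scanner log ratio IER2 read -0.54 and -0.43 and IER3 -0.41 and -0.26.

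**Figure D4:**
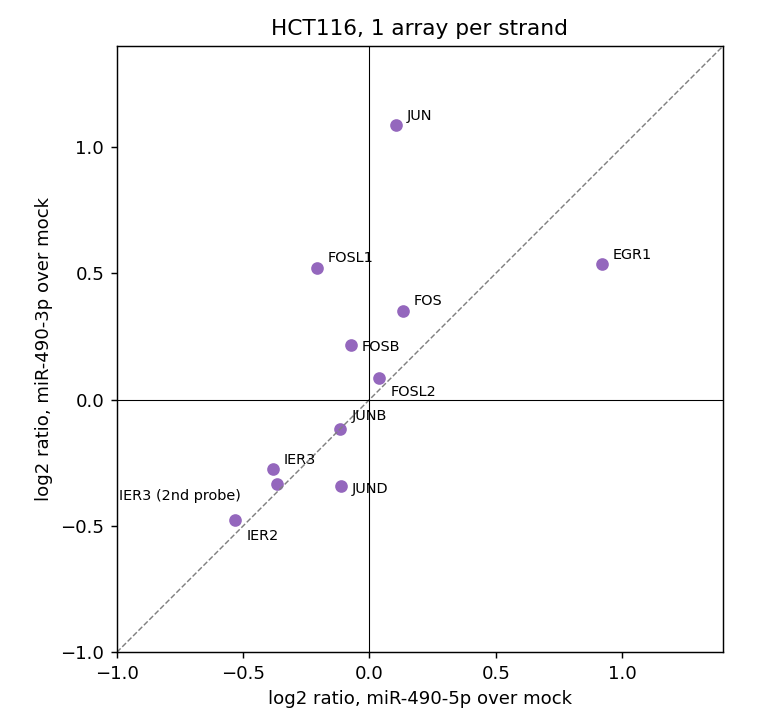
Log2 ratio over mock in HCT116 for the 11 member probes, miR-490-5p on the x axis and miR-490-3p on the y axis (1 array each; dashed line: equal values). JUN (0.10, 1.09) and FOSL1 (-0.21, 0.52) lie far above the line, and IER2 and IER3 lie on its lower part near equality.

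Among related genes, CYR61 was the highest immediate early gene on both HCT116 arrays, 1.66 for the 5p and 1.83 for the 3p strand. PLAU was the lowest AP-1 target on both, at -2.34 and -1.49 (-1.31 and -0.83 by its other probe). ATF4, the leucine zipper factor of the integrated stress response, read -1.45 for the 5p and -0.59 for the 3p strand. The arrays share a cell line and may share a mock extract.

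The 3 members with the widest range over the 8 arrays were JUN (1.57), IER3 (1.38) and IER2 (1.14). The genes most like each by Pearson correlation of the log2 ratio over 8 arrays, among 2831 genes, were CD97 (0.977), VCAN (0.963) and BIRC3 (0.957) for JUN. They were SPCS3 (0.969), LARP1B (0.968) and the transcript ENST00000448345 (0.967) for IER3, and EPB41L4A-AS1 (0.984), FAM206A (0.982) and ENST00000403904 (0.978) for IER2. These are descriptions over arrays that share lines.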

How the data were processed

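The 8 arrays lay on 1 slide. Per the file headers, the authors scanned them and ran Agilent Feature Extraction 11.5.1.1. The deposited intensity columns are mean spot brightness and median local background per channel, linear and not normalized. That software also made the deposited log10 ratio (Cy5 over Cy3), which the value table for the series repeats. It served as an alternative. Each array had 62976 spots (2075 controls). Outlier spots (112 to 194 per array) were left out, 0 spots were saturated, and 24983 to 29687 probes had Cy3 or Cy5 well above background. The number of arrays limits the precision.

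Background was corrected by normexp (offset 50) and ratios were normalized by loess within arrays in limma 3.58.1 (R 4.3.3, data.table, version 1.17.8). Mock levels were taken from Cy3 after quantile normalization over 8 channels. Groups of 2 arrays were tested against 0 with lmFit and eBayes in 1 fit of all 8 arrays (5 group coefficients, 3 residual degrees of freedom), for probes whose Cy3 or Cy5 signal the software called well above background on each of the group's arrays, with Benjamini-Hochberg adjustment and a threshold of 0.05. Replicates are cell lines or siRNAs, and the ratio leaves out the spread of the mock. All 11 member probes entered every test. The brightest probe stood for a gene. All members were named. From the other lists the lowest and highest gene on each array were named where the size reached 1, as were called genes, and IL6 with siRNA 1 was added for comparison. Some genes of these lists are not reported here. The miR-139 arrays pair by cell line per the labels (correlation of deviations 0.0753 over 22174 probes, 2 pairs). The script was tested on simulated data. The members and lists were chosen with earlier results of these data known. Tables and figures used Python 3.11.15, pandas 2.3.3 and matplotlib 3.10.9.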

Additional observations from a re-analysis of the deposited data

Results flagged for a closer look

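IER3 stood out because both of its probes lay above 0 on the A498 arrays of miR-139 and below 0 on those of 786-O, whichever strand was given. A498 minus 786-O was 0.216 for the brighter probe and 0.266 for the other, each from 2 arrays per line. By the limma contrast the unadjusted p was 0.0593 and 0.0196 and the adjusted p was 0.99998 for both, and 1.31% of all probes had an unadjusted p under 0.05. The split of signs depended on the scaling. Under median centring the brighter probe read 0.01 (miR-139-5p) and 0.16 (miR-139-3p) in 786-O, and the other probe 0.03 with miR-139-3p. With each probe's mean over the other lines subtracted, the A498 miR-139-5p values were -0.10 and -0.02.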

How the results depend on the processing

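With si-GINS1, 4 member probes were called. The number was 0 by the scanner log ratio (75 of all probes) and 0 with only the si-GINS1 arrays in the fit (0). It was also 0 when the prior followed a trend in intensity and was robust (0). With the mock as a random block it was 8 (7 higher, 1 lower), where 10521 of all 27796 probes were called. It was 5 under median centring (2974), without background correction (1663), with an offset of 10 (1516) and with the other lines' mean subtracted (1113). Without the filter on dim probes it was 3 (1686 of 58185 probes). Leaving out 1 siRNA assumes that the lone array varies like the other groups, so only effect sizes are given. EGR1 read 1.18 without siRNA 1 and 0.85 without siRNA 2. Over all probes the calls ran from 0 to 10521 against 1936, and median centring changed the split from 926 higher and 1010 lower to 2689 and 285. The miR-139 comparisons gave 0 member calls under every alternative run, those leaving out an array included (0 to 0), and the pairing of the strands by cell line, or of the lines by strand, as a block gave 0 member calls, and the block by strand raised the calls over all probes from 0 to 12. For A498 minus 786-O the mock as a random block gave the same counts as the main fit, so it was not a separate check. Both had 0 member calls and 290 of 22174 probes at a limma unadjusted p under 0.05. For miR-490-5p, 0 members passed 1 unit, where 1.39% of all genes did. The number was 1 by the scanner log ratio (8.72% of all genes), 1 under median centring (1.36%) and 2 at a size of 0.5 (9.43%). For miR-490-3p, 1 passed (234 of all 21864 genes), against 2 by the scanner log ratio (1750) and 3 at 0.5 (1692). For their difference, 0 passed (266 of all 20789 genes). The number was 2 by the scanner log ratio (2012) and 2 at 0.5 (2401). It was 1 under median centring (421), 1 without background correction (562) and 1 with an offset of 10 (653). In mock cells, 19 differences of a member probe between lines became 36 by the scanner's processed signal less its 75th percentile. Over all probes, such differences rose from 18593 to 62069 under the same change, so the rise was not particular to the members. No called member value changed sign, while several that were not called did. Of 88 single-array values, between 30 (no background correction, offset 10) and 60 (other lines' mean subtracted) moved by more than the replicate spread. The cause was not tested. FOS and FOSB, 21 to 57 in intensity over a background of 12 to 18, limit what could be seen of them.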
